A study of Mus musculus with 18 samples.

Results

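Neutrophils sorted from ear skin were compared with neutrophils sorted from colon, the libraries labelled Skin and Intestine. All 6 libraries with these tissue labels, 3 Skin and 3 Intestine, were taken out of 18 libraries in the series, and only they entered the fit. The series asks how the transcriptome of the neutrophil differs among 6 tissues, which are bone marrow, blood, spleen, lung, intestine and skin. All animals were C57BL/6 mice of 8 to 12 weeks with no treatment and no engineered allele named in the labels. Cells were sorted as Ly6G-positive with antibodies to CD45, CD11b and Ly6G and with DAPI against dead cells, to a purity that the labels give as typically above 95%. RNA was amplified with a kit made for very small inputs and sequenced in single-end reads of 61 nt. The labels do not say whether the 3 libraries of a tissue came from separate animals or from pools, so every p-value measures the spread between libraries, which may be technical.

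Neutrophils are short-lived granulocytes that mature in the bone marrow, fill their granules there, and enter tissues through the blood. In the tissue they can be primed through NF-kappaB and interleukin-1 signals, which raise the transcripts of cytokines, chemokines and their regulators. Skin and colon differ sharply in the cells that surround a neutrophil: a keratinising epithelium in the ear, and in the colon a mucus-secreting epithelium, a muscle wall and a lamina propria rich in plasma cells that secrete IgA.

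Transcripts that mark neutrophils were far more abundant in 2 of the 3 Skin libraries than in any Intestine library, while the remaining Skin library was close to Intestine. The genes that passed the test as higher in Skin were led by epidermal keratins, a family of repeat-related genes and a few other genes, among them Hdc, Slc7a11 and Thbs1. The genes that passed as higher in Intestine were led by Adamdec1, by immunoglobulin genes and by genes of smooth muscle and fibroblasts. No inflammatory list had a member that passed in either direction, although the middle member of the NF-kappaB list was 1.76 higher in Skin on the log2 scale. Values are the deposited scaled counts, which are estimated read counts divided by an effective library size and are not divided by transcript length, so levels are compared between libraries for 1 gene and not between genes.

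The 6 libraries differed in quality as well as tissue. Estimated counts summed, in units of 1e6, to 5.68 to 10.4 in Skin and 9.86 to 10.9 in Intestine. The repeat-related group of genes around Gm10800 took 54.7%, 43.6% and 26.4% of the counts in Skin replicates 1, 2 and 3, against 4.68% to 8.89% in Intestine and 1.07% to 9.02% in the other 12 libraries. Mitochondrially encoded genes took 23.2%, 8.58% and 8.24% in Intestine replicates 1, 2 and 3, against 1.64% to 2.61% in Skin. Genes above the level of 0 reads numbered 13361, 9169 and 13560 in Skin and between 14363 and 15999 in Intestine. The median gene varied by an SD of 1.76 on the log2 scale among the Skin libraries and of 0.629 among the Intestine libraries. How far depth, the repeat share or the mitochondrial share set any difference below was not tested.

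Of 12585 genes that reached a value of 1 in 3 or more of the 6 libraries, 96 (0.763%) differed at an adjusted p under 0.05 by limma's moderated test with Benjamini-Hochberg adjustment over all of them. The transcripts of 30 genes (0.238%) were higher in Skin and those of 66 genes (0.524%) were higher in Intestine. Without adjustment, 667 genes (5.3%) were higher in Skin and 1988 (15.8%) higher in Intestine at p under 0.05. The 3 Skin libraries lay above all 3 Intestine libraries for 994 genes (7.9%) and below them for 2565 (20.4%), and all 96 passing genes were without overlap. The median gene was 0.76 lower in Skin on the log2 scale, with quartiles of -1.97 and 0.48, so the direction of a small difference depends on the scale. After quantile normalization 371 genes were higher in Skin and 437 in Intestine, and after centring each library on its median 1 gene was higher in Skin, Krt5 with an adjusted p of 0.0481 by limma, and 0 in Intestine, with 1074 and 586 at an unadjusted p under 0.05. Leaving out any 1 of the Intestine libraries left 0 genes past the threshold in either direction by limma, with 378 to 436 genes higher in Skin and 1332 to 1566 higher in Intestine at an unadjusted p under 0.05. Leaving out Skin replicate 1 gave 303 and 702 genes, leaving out Skin replicate 2 gave 57 and 186, and leaving out Skin replicate 3 gave 22 and 26. Counts of list members from these fits are to be read against these counts over all tested genes. The lists were chosen with earlier results of these data known, so a list count above those shares is a description and not a test.

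**Figure D1:**
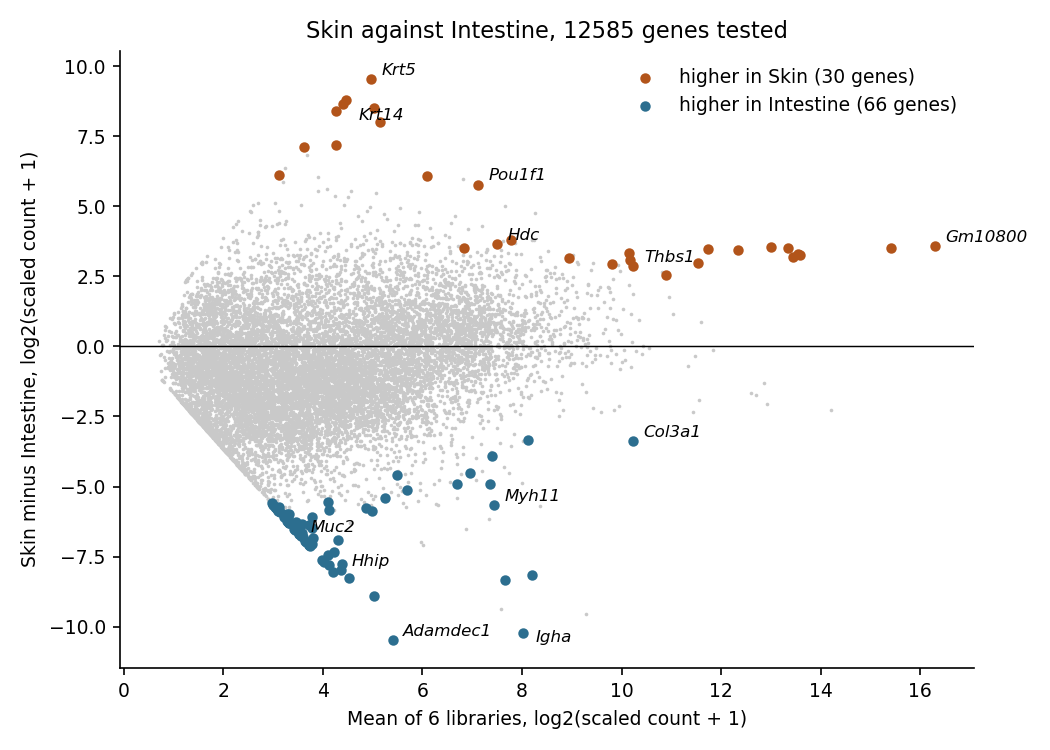
The difference of each of the 12585 tested genes (y axis, log2 of Skin over Intestine on value + 1) against its mean level (x axis, log2), with the 30 genes higher in Skin and the 66 higher in Intestine coloured. Most genes lie below 0, with a median of -0.76, and the passing genes lie at the edges, up to 9.55 for Krt5 and down to -10.47 for Adamdec1.

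The passing genes were grouped by kind, and many were protein-coding genes outside the named kinds. The 30 genes higher in Skin comprised 8 keratinocyte markers, 10 members of the repeat-related group, 10 other protein-coding genes and 2 pseudogenes. The 66 higher in Intestine comprised 20 immunoglobulin genes, 12 other genes from marker lists of non-neutrophil cells, 2 collagens, 31 other protein-coding genes and 1 identifier without a name. Every gene higher in Skin differed by between 2.56 and 9.55 and every gene higher in Intestine by between 3.36 and 10.47 on the log2 scale. For 27 of the 30, the 3 Skin libraries also lay above all 12 libraries of the other tissues, a position held by 3.4% of tested genes, and for 60 of the 66 the 3 Intestine libraries did, against 11.5%.

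Ly6g, the gene of the antigen that the sort was gated on, was read weakly in both tissues. Its scaled counts were 0.221, 0.216 and 26.9 in Skin replicates 1, 2 and 3 and 3.14, 0.410 and 0.346 in Intestine. Skin replicate 2 held 0 reads of it, only 1 Skin and 1 Intestine library rose above a value of 1, and the gene was not tested. Bone marrow libraries held 291 to 566, blood 69.3 to 237, spleen 7.61 to 23.3 and lung 19.9 to 37.2. Mpo, the granule peroxidase made in immature neutrophils, reached at most 1.05 in any of the 6 libraries.

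Other genes that mark neutrophils were well read. The summed level of the 28 neutrophil identity genes was 3029, 37686 and 19040 in Skin and 2563, 1946 and 2438 in Intestine, against 45753 to 62575 in bone marrow and blood, 22332 to 28216 in spleen and 11381 to 34068 in lung. On the deposited scale, Skin replicate 3 thus lay within the range of lung and Skin replicate 2 above it, while Skin replicate 1 was close to the Intestine libraries. All tested genes together summed to 2435900 in Skin replicate 2 on that scale, against 757770 to 1043800 in lung. The place of Skin replicate 2 above lung therefore depends on the scaling. In bulk RNA, fewer cells of a type and less RNA per cell cannot be told apart. Of 27 tested members 1, Hdc, was higher in Skin and 0 in Intestine, against 0.238% and 0.524% of all tested genes. The median member was 2.12 higher in Skin on the log2 scale, against -0.76 for all tested genes, and 9 members were higher in every Skin library than in any Intestine library, where 7.9% of all tested genes were. With Skin replicate 1 left out, 17 of the 27 passed as higher in Skin by limma and the median was 3.52, without Skin replicate 2 it was 1 member and 1.11, and without Skin replicate 3 it was 0 members and 1.34.

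The members that every neutrophil uses showed the same division among Skin libraries. S100a9, a subunit of the calcium-binding protein calprotectin, measured 608, 8093 and 3880 in Skin and 430.3, 267 and 377 in Intestine. Skin was higher in every library, by 2.92 ± 0.81 (SE) on the log2 scale, and the gene missed the threshold (limma, adjusted p = 0.0707). Its partner S100a8 measured 77.0, 2992 and 978 in Skin and 112, 83.5 and 79.7 in Intestine, so that Skin replicate 1 lay below all 3 Intestine libraries (2.74 ± 1.12, adjusted p = 0.191). Csf3r, the receptor of the growth factor G-CSF, measured 194, 2818 and 1857 against 176, 219 and 159.6, and the groups overlapped (2.45 ± 0.89, adjusted p = 0.144). Cxcr2, the receptor that draws neutrophils to CXC chemokines, was again low in Skin replicate 1, at 54.4 against 1724 and 906 in the other Skin libraries and 55.7 to 92.1 in Intestine (2.53 ± 1.12, adjusted p = 0.227). In the fit without Skin replicate 1, S100a9 and Csf3r each passed with an adjusted p of 0.0223 by limma, whereas the adjusted p was 0.136 and 0.263 without Skin replicate 2, and 0.1705 and 0.294 without Skin replicate 3. Itgam, which encodes the CD11b used in the sort, differed by 1.24 ± 0.71 with overlap (adjusted p = 0.353 by limma), and Ptprc, the gene of CD45, by 1.69 ± 0.72 (adjusted p = 0.209).

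**Figure D2:**
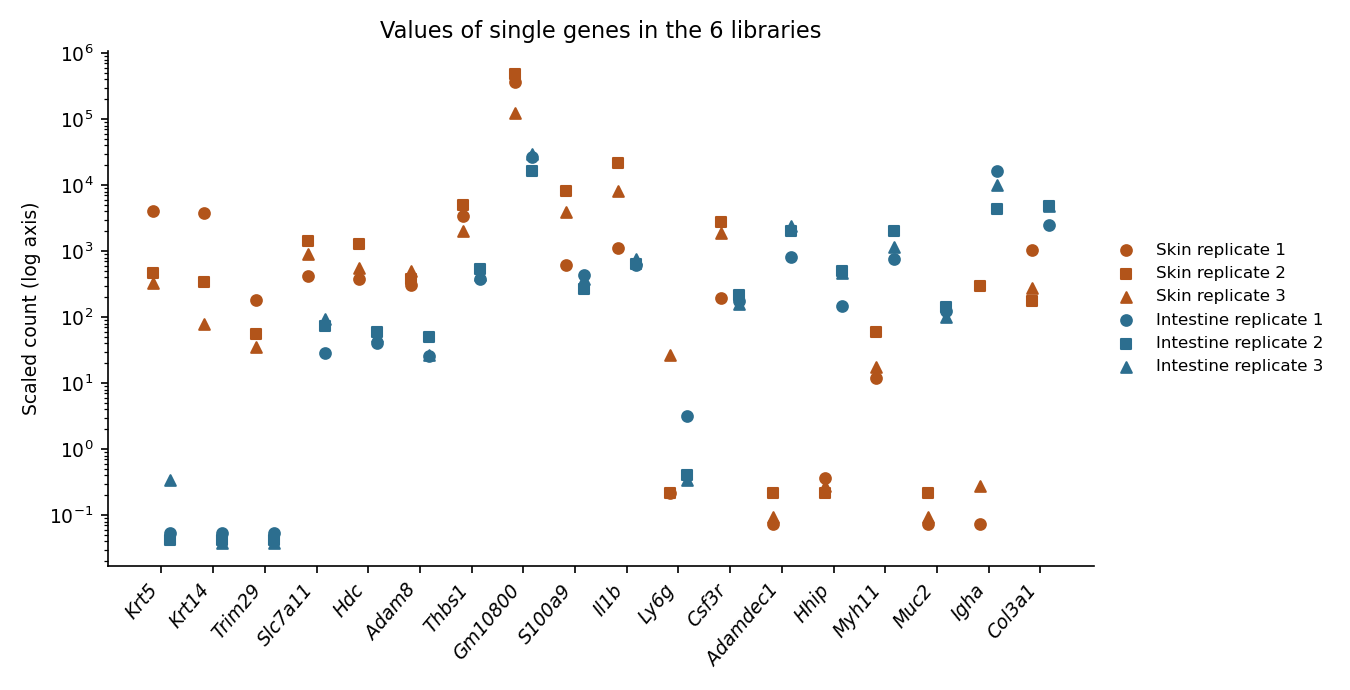
Scaled counts (y axis, log scale) of 18 genes in each of the 3 Skin and 3 Intestine libraries, 1 point per library. For S100a9, Il1b and Csf3r Skin replicate 1 lies near the Intestine points while Skin replicates 2 and 3 lie above them, and for Adamdec1 the Skin points lie at the level of 0 reads.

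Hdc, histidine decarboxylase, which makes histamine and is transcribed in neutrophils, basophils and mast cells, was the identity gene that passed. It measured 381, 1268 and 555 in Skin and 40.1, 59.8 and 52.8 in Intestine. The groups were far apart, with means of 735 ± 469.9 and 50.9 ± 10.0 (SD, n = 3 each), a difference of 3.66 ± 0.65 on the log2 scale and an adjusted p of 0.0397 by limma. The gene lies on chromosome 2 at 126593667 to 126619299 of mm10, on the minus strand. Its means in bone marrow, blood, spleen and lung were 336, 753, 360.5 and 439.9, and the 3 Intestine libraries lay below all 12 libraries of those tissues, as for 10.1% of tested genes. The call was lost under 6 of 17 alternative settings. Among the identity genes next in order, Clec4e, a pattern receptor for mycobacterial cord factor and damaged cells, measured 194, 1132 and 647 in Skin and 28.8, 45.9 and 72.7 in Intestine (3.48 ± 0.78, adjusted p = 0.0583). Il1r2, the decoy receptor that binds interleukin-1 without signalling, was also higher in every Skin library, by 3.23 ± 0.74 (adjusted p = 0.0586).

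In the interleukin-1 and inflammasome list, 0 of 13 tested members passed in either direction by limma. At an unadjusted p under 0.05, 6 were higher in Skin and 1 in Intestine, against 5.3% and 15.8% of all tested genes. The median member was 0.89 higher in Skin. Il1b, which encodes the fever-inducing cytokine interleukin-1 beta, measured 1134, 21432 and 8043 in Skin and 609, 642 and 751 in Intestine. All Skin libraries were above all Intestine libraries, by 3.12 ± 0.86 on the log2 scale, and the gene missed the threshold (adjusted p = 0.0698 by limma), with an adjusted p of 0.0223 without Skin replicate 1, 0.140 without Skin replicate 2 and 0.1675 without Skin replicate 3. Il1rn, which encodes the secreted antagonist of the interleukin-1 receptor, measured 257, 3193 and 1719 in Skin and 52.2, 73.1 and 133 in Intestine (3.80 ± 0.89, adjusted p = 0.0586). Il18rap, a subunit of the receptor for interleukin-18, measured 84.5, 244 and 250.3 in Skin and 13.1, 10.0 and 17.5 in Intestine (3.61 ± 0.83, adjusted p = 0.0586). For each of these 3 genes the lowest library was Skin replicate 1 among the Skin libraries, and it still lay above Intestine. Without Skin replicate 1, 6 members passed as higher in Skin and 1 as higher in Intestine, and without Skin replicate 2 or 3 none of the 13 did by limma. The median ran from 0.51 without Intestine replicate 2 to 2.07 without Skin replicate 2. Keratinocyte markers summed to 17455, 8252 and 1380 in these Skin libraries, and their part in the inflammatory differences was not tested.

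The NF-kappaB response list gave the same picture with less division among the Skin libraries. Of 30 tested members 0 passed in either direction by limma. At an unadjusted p under 0.05, 8 were higher in Skin and 0 in Intestine, against 5.3% and 15.8% of all tested genes. For 13 members every Skin library lay above every Intestine library, against 7.9% of all tested genes. The median member was 1.76 higher in Skin. Tnfaip3, the ubiquitin-editing enzyme that switches NF-kappaB off, measured 736, 1647 and 1011 in Skin and 90.1, 174 and 217 in Intestine. The groups did not overlap (2.82 ± 0.57, adjusted p = 0.0559). Nfkbia, the inhibitor that holds NF-kappaB in the cytoplasm, measured 559, 1681 and 660.2 against 168, 123 and 158 (2.52 ± 0.58, adjusted p = 0.0586). Nfkbiz, a nuclear cofactor of NF-kappaB, and Rel, 1 of its subunits, were higher in every Skin library by 2.62 (adjusted p = 0.0586) and 2.55 (adjusted p = 0.0649). As higher in Skin, 6 of the 30 passed without Skin replicate 1, 2 without Skin replicate 2 and 0 without Skin replicate 3 by limma.

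Of 27 immediate early genes, which respond to a stimulus within minutes, 0 passed in either direction by limma. At an unadjusted p under 0.05, 13 were higher in Skin and 0 in Intestine, against 5.3% and 15.8% of all tested genes. The median member was 1.79 higher in Skin, and 16 members were higher in every Skin library, against 7.9% of all tested genes. Fosl2, a component of the AP-1 transcription factor, measured 603, 1576 and 1951 in Skin and 147, 317 and 234 in Intestine (2.46 ± 0.59, adjusted p = 0.0600). Zfp36, which binds cytokine transcripts and speeds their decay, measured 389.9, 1546 and 1426 against 192, 206 and 141 (2.42 ± 0.63, adjusted p = 0.0649). Nr4a1, an orphan nuclear receptor, and Klf6, a zinc-finger factor, were higher in every Skin library by 2.32 and 1.58 (adjusted p = 0.0690 and 0.0739). As higher in Skin, 8 of the 27 passed without Skin replicate 1, 1 without Skin replicate 2 and 0 without Skin replicate 3 by limma.

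Among 23 tested chemokine and cytokine genes, 0 passed in either direction by limma, and the median member was 1.39 higher in Skin. At an unadjusted p under 0.05, 5 were higher in Skin and 1 in Intestine, against 5.3% and 15.8% of all tested genes. As higher in Skin, 3 passed without Skin replicate 1, 1 without Skin replicate 2 and 0 without Skin replicate 3. Cxcl2, a chemokine that neutrophils make to recruit more neutrophils, measured 166, 2017 and 1138 in Skin and 56.3, 36.6 and 69.3 in Intestine, without overlap (3.77 ± 0.89, adjusted p = 0.0586). Tnfsf13b, which encodes the B-cell survival factor BAFF, ran the other way, with values of 0.515 or less in Skin and of 11.2, 28.4 and 59.5 in Intestine (-4.47 ± 1.08, adjusted p = 0.0600). In the chemokine receptor list 0 of 14 passed by limma, with 3 and 1 at an unadjusted p under 0.05, while 6 passed as higher in Skin and 1 as higher in Intestine without Skin replicate 1. Without Skin replicate 2 the counts were 0 and 1, and without Skin replicate 3 they were 0 and 0. Cxcr4, which retains neutrophils in the marrow and rises as they age, measured 92.6, 1684 and 526 in Skin and 57.6, 79.5 and 88.4 in Intestine (2.54 ± 0.95, adjusted p = 0.156). Ackr3, the atypical receptor of the same ligand, was higher in every Intestine library, at 41.0 to 69.3 against 0.216 to 3.31 in Skin (-4.34 ± 1.11, adjusted p = 0.0636).

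**Figure D3:**
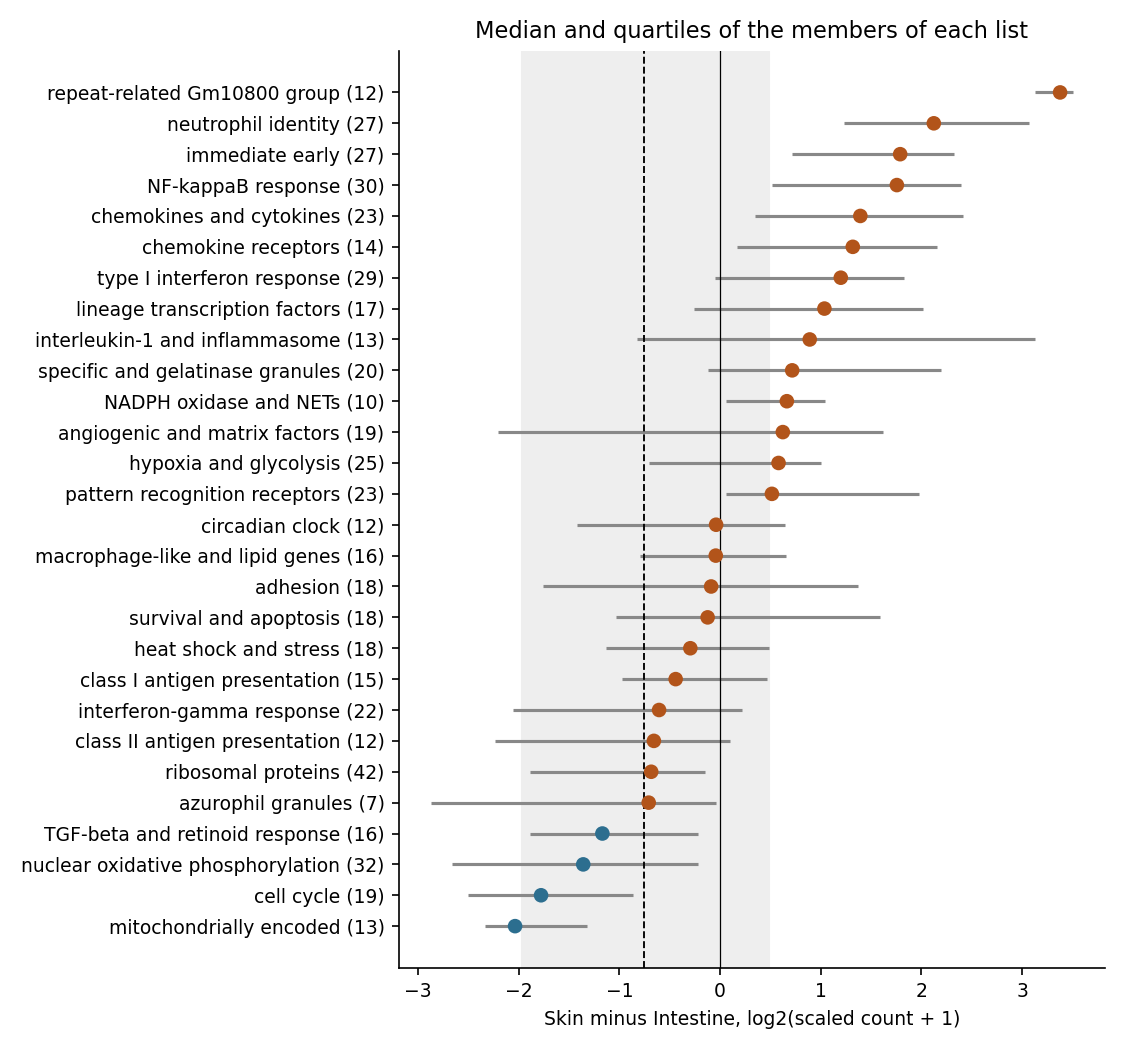
Median log2 difference (x axis, Skin minus Intestine) of the tested members of 28 gene lists, with the number tested in brackets. The dashed line marks the median of all tested genes at -0.76 and the grey band their quartiles. Orange lists lie above that median and blue lists below it, from the repeat-related group at 3.38 to the mitochondrially encoded genes at -2.04.

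Among the tested granule genes only 1 passed the threshold. The specific and gelatinase granules hold enzymes and receptors that move to the surface. Of 20 tested members of their list 1 was higher in Skin, against a background of 0.238%, and 0 in Intestine. At an unadjusted p under 0.05, 4 were higher in Skin and 0 in Intestine, against 5.3% and 15.8% of all tested genes. In 3 members every Skin library lay above every Intestine library, against 7.9%. The median member was 0.72 higher in Skin. The median was 2.22 without Skin replicate 1, 0.44 without Intestine replicate 2 and 0.34 without Skin replicate 3, with 6, 0 and 0 members passing as higher in Skin. The passing gene was Adam8, a membrane metalloprotease of myeloid cells, with 312, 374 and 500.5 in Skin and 25.5, 50.6 and 27.2 in Intestine. Its 3 Skin libraries were close together and all above Intestine, with a Skin mean of 396 ± 95.9 (SD, n = 3), a difference of 3.53 ± 0.66 and an adjusted p of 0.0463 by limma. The call was lost under 7 of 17 alternatives. Adam8 lies on chromosome 7 at 139978932 to 139992562, minus strand.

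Transcripts of granule proteins that are made in the marrow were low in both tissues. Camp, which encodes the antimicrobial peptide precursor cathelicidin, measured 0.221, 0.216 and 12.6 in Skin and 38.1, 4.94 and 1.96 in Intestine, with a bone marrow mean of 2806. Ltf, the gene of the iron-binding protein lactoferrin, measured 0.0736, 1.51 and 52.2 in Skin and 99.7, 14.9 and 14.5 in Intestine, with a bone marrow mean of 7949. The groups overlapped for both (adjusted p = 0.504 and 0.408 by limma). Of 14 azurophil granule genes 7 could be tested, 5 had 0 reads in all 3 libraries of each tissue, and 0 passed in either direction by limma. At an unadjusted p under 0.05, 0 were higher in Skin and 2 in Intestine, against 5.3% and 15.8% of all tested genes. Gaa, the lysosomal glucosidase, was the member with the smallest p, at 1.55 or less in Skin and 26.9, 40.3 and 11.8 in Intestine (-4.03 ± 1.07, adjusted p = 0.0665).

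Slc7a11, the exchanger that imports cystine for glutathione synthesis, was higher in Skin. It measured 427, 1408 and 919 in Skin and 28.3, 73.1 and 94.8 in Intestine, and the highest Intestine library was below the lowest Skin library. The means were 918 ± 490.0 and 65.4 ± 33.9 (SD, n = 3 each), the difference was 3.79 ± 0.70 on the log2 scale and the adjusted p was 0.0450 by limma. As for Hdc and Adam8, the 3 Intestine libraries lay below all 12 libraries of the other tissues, whose means ran from 252 in spleen to 614 in lung. The gene lies on chromosome 3 at 49892526 to 50443614, minus strand.

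Thbs1 encodes thrombospondin 1, a matrix protein of platelets, stroma and myeloid cells that restrains blood vessel growth. It measured 3410.2, 5027 and 2060 in Skin and 379.5, 529.7 and 439 in Intestine. Every Skin library exceeded every Intestine library, with means of 3499 ± 1486 and 449 ± 75.6 (SD, n = 3 each), a difference of 2.88 ± 0.46 and an adjusted p of 0.0260 by limma. Its mean was 957 in lung and between 24.8 and 248 in spleen, blood and bone marrow. It was the only 1 of 19 tested members of the angiogenic and matrix list to pass, against a background of 0.238%. Vegfa, the vascular growth factor of that list, measured 135, 28.0 and 280.3 in Skin and 52.6, 53.0 and 72.2 in Intestine, with overlap (adjusted p = 0.647).

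Further genes higher in Skin are best known from other settings. Trim29, a tripartite motif protein of squamous epithelia, measured 185, 55.2 and 36.0 in Skin and had 0 reads in Intestine (adjusted p = 0.0463 by limma). Its mean was thus at least 297-fold higher in Skin, taking 3 counts per library as the floor, which covers counting error only. Pou1f1, a transcription factor of the pituitary, measured 353, 4471 and 694 against 29.8, 8.14 and 22.6 (5.78 ± 0.97, adjusted p = 0.0355). Ap1s3, the small subunit of the AP-1 clathrin adaptor, measured 2778, 5794 and 2920 against 606, 191 and 404 (3.32 ± 0.54, adjusted p = 0.0291). For all 3 genes the lowest Skin library lay above the highest Intestine library. Xkrx and Gm42669 passed too, chosen here after their values were seen, at 3.07 and 3.14. The labels do not state whether counting used the strand, so a gene that overlaps an antisense neighbour cannot be told from it.

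Of 12 tested genes of the repeat-related group, 10 were higher in Skin and 0 in Intestine, against a background of 0.238%. All 12 were higher in every Skin library than in any Intestine library, against 7.9% of tested genes. Gm10800, the most abundant, lies on chromosome 2 at 98666547 to 98667301, minus strand, and measured 361273, 481525 and 124446 in Skin and 26432, 16203 and 29442 in Intestine (3.58 ± 0.45, adjusted p = 0.0145 by limma). The passing members differed by 2.97 to 3.58 on the log2 scale. Gm21738 and Gm10717, other members, differed by 3.56 and 3.52 (adjusted p = 0.0260 for both). These genes share near-identical sequence, so reads are divided among them by estimation and the value of any single member is uncertain. The 12 members are therefore not independent of each other. As higher in Skin, 10 of the 12 passed without Skin replicate 1, 1 without Skin replicate 2 and 11 without Skin replicate 3.

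Keratinocyte markers had the highest median difference toward Skin of all lists. Like the other lists, this one was chosen with earlier results of these data known. Of 14 tested members 8 were higher in Skin, against a background of 0.238%, and 0 in Intestine, namely Krt5, Krt1, Krt10, Dsg1a, Krt15, Krt14, Dmkn and Col17a1. In 12 members every Skin library was higher, against 7.9% of tested genes. The median member was 7.16 higher in Skin, or 7.59 with the 5 members that had 0 reads in Intestine set to their bound. The summed level of all 20 listed genes was 17455, 8252 and 1380 in Skin and 116, 12.9 and 59.0 in Intestine, with 9 of the 20 at 0 reads in Intestine and 0 of them in Skin, and it was 6.86 to 197 in the other 12 libraries. Without Skin replicate 1, 2 or 3, 9, 7 and 9 of the 14 passed.

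Krt5, the keratin of basal epidermal cells, measured 4048, 470.0 and 327 in Skin and 0.0532, 0.0415 and 0.346 in Intestine (9.55 ± 1.11 on the log2 scale, adjusted p = 0.0145 by limma). It lies on chromosome 15 at 101707070 to 101712898, minus strand, and its call was lost under 3 of 17 alternatives. Its partner Krt14 measured 3818, 343 and 78.2 in Skin with 0 reads in Intestine (adjusted p = 0.0260 by limma). By the means, which Skin replicate 1 dominates, it was at least 4550.0-fold higher in Skin. Both were highest in Skin replicate 1, the library with the lowest sum of neutrophil genes. Krt10, a keratin of the differentiated layers above, measured 2219, 637 and 171 in Skin and at most 3.53 in Intestine (8.52 ± 1.16, adjusted p = 0.0172). Krt1, its partner, measured 384, 1273 and 154 in Skin with 0 reads in Intestine, at least 1945-fold higher by the means (adjusted p = 0.0145 by limma). It was highest in Skin replicate 2. Krt5, Krt14 and Krt10 were all lowest in Skin replicate 3 and highest in Skin replicate 1, so Krt1 alone of these 4 had another highest library.

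The promoter of Krt10 is shown because its gene was among those with the largest difference, as the 250 bases before the RefSeq start on GRCm38.p6 at chr11:99389365-99389614 on the minus strand, 5′ to 3′, with the letters TATAA in capitals.
Krt10: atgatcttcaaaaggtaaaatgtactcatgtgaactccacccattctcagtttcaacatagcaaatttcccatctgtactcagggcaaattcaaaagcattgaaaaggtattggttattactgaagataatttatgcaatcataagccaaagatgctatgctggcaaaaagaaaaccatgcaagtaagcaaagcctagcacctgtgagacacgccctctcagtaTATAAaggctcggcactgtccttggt
The match starts 26 bases before the gene's start. Searched on both strands, TATAA was found in 6 of 13 keratinocyte promoters with a RefSeq entry and in 22.8% of 32851 promoters of the same length. A match describes the letters only.

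Immunoglobulin genes were higher in Intestine. They were 20 of the 66 passing genes, comprising 17 variable segments and the constant genes Igha, Igkc and Iglc1. Of all tested genes, 0.524% passed as higher in Intestine. How many immunoglobulin genes were tested was not counted, so the share of them that passed is not given. Igha, the heavy chain of IgA, measured 0.0736, 302 and 0.279 in Skin and 16707, 4293 and 10150.2 in Intestine. Skin replicate 2 stood above the other Skin libraries and still lay far below Intestine (-10.23 ± 1.80 on the log2 scale, adjusted p = 0.0384 by limma). Igkc, the kappa light chain, measured 1.25, 173 and 12.6 against 7946, 2887 and 5292 (-8.15 ± 1.28, adjusted p = 0.0260). Jchain, which joins IgA into dimers for transport across the gut epithelium, measured 0.374, 258 and 2.88 against 5677, 2291 and 3660.1 (-8.35 ± 1.57, adjusted p = 0.0466). The same Skin library was the highest for all 3 genes.

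The variable segments differed by -8.89 to -5.79 on the log2 scale, with no Skin value above 1.08. Igkv6-15 led them, at 1017, 411 and 835 in Intestine and 1.08 or less in Skin (adjusted p = 0.00922 by limma). Segments of a family are close copies, so the value of a single segment is uncertain. Of 9 tested plasma cell markers 4 were higher in Intestine, against a background of 0.524%, and 0 in Skin. The median was -3.87, or -4.56 with 3 members at their bound. Their summed level was 31242, 9818.5 and 19760 in Intestine, 195, 795 and 186 in Skin, and between 187 and 1618 elsewhere in the series, and 4 of the 10 listed genes had 0 reads in Skin. Without Skin replicate 3, 1 of the 9 passed.

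Genes of the contractile apparatus of smooth muscle were higher in Intestine. Of 10 tested markers 6 passed as higher in Intestine, against a background of 0.524%, and 0 in Skin. All 10 were higher in every Intestine library, against 20.4% of tested genes. The median member was -5.68, or -6.07 with 2 members at their bound. The summed level was 1479, 4822 and 2485 in Intestine and 55.0, 82.2 and 59.4 in Skin, with 2 of 10 at 0 reads in Skin. Without Skin replicate 1, 2 or 3, 7, 6 and 1 of the 10 passed. Myh11, the smooth muscle myosin heavy chain, measured 12.0, 60.4 and 17.4 in Skin and 772, 2047 and 1169 in Intestine (-5.65 ± 0.75, adjusted p = 0.0169 by limma). Acta2, smooth muscle actin, measured 22.9, 18.8 and 35.1 against 366, 1090.2 and 521 (-4.53 ± 0.69, adjusted p = 0.0260). Intestine replicate 2 was the highest library for both. Tagln, an actin-binding protein, Synpo2, a protein of actin bundles, Des, the intermediate filament desmin, and Lmod1, an actin nucleator, also passed. The 3 Skin libraries lay below all 12 libraries of the other tissues for Tagln, a position held by 4.54% of tested genes.

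The promoter of Acta2 is shown because smooth muscle genes are known to carry CArG boxes, the site of serum response factor. These are the 250 bases before the RefSeq start on GRCm38.p6 at chr19:34255374-34255623 on the minus strand, 5′ to 3′, with matches to CCNNNNNNGG in capitals where at least 5 of the 6 N are A or T.
Acta2: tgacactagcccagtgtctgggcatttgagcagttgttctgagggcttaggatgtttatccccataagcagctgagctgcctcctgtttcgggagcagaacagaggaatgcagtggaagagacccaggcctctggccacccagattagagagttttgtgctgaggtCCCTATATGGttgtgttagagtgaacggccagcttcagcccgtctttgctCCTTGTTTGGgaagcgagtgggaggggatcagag
The 2 matches start 84 and 34 bases before the gene's start. Searched on both strands, such a match was found in 1 of 6 smooth muscle promoters with a RefSeq entry and in 8.59% of 32851 promoters of the same length.

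Fibroblast and vessel genes moved the same way in part. Of 15 tested fibroblast markers 3 were higher in Intestine, against a background of 0.524%, and 0 in Skin. The median was -3.81, and 12 were higher in every Intestine library, against 20.4% of tested genes. Pdgfra, the receptor that marks gut mesenchyme, measured 65.9, 37.1 and 9.56 in Skin and 696, 985 and 1069.7 in Intestine (-4.91 ± 0.77, adjusted p = 0.0260 by limma). Col3a1, fibrillar collagen of connective tissue, measured 1045, 178 and 279 against 2518, 4778 and 4837 (-3.37 ± 0.64, adjusted p = 0.0493), and its call was lost under 9 of 17 alternatives. Fbln1, a secreted matrix glycoprotein, differed by -6.90 (adjusted p = 0.0234). The fibroblast sum was 7056, 3048 and 2024 in Skin and 10881, 20063 and 20323 in Intestine, with 0 of 15 at 0 reads in either tissue. Without Skin replicate 1, 2 or 3, 12, 3 and 2 of the 15 passed. Of 14 endothelial markers 1 passed, Kdr, the receptor of vascular growth factor, at 5.08 ± 2.12 (SD, n = 3) in Skin and 160.4, 387 and 238 in Intestine (-5.40 ± 0.85, adjusted p = 0.0260). Without Skin replicate 1, 2 or 3, 5, 3 and 0 of the 14 passed by limma. The endothelial sum was 161 to 423 in Skin and 954 to 2717 in Intestine.

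Of 17 tested markers of intestinal epithelium 1 was higher in Intestine, against a background of 0.524%, and 0 in Skin. At an unadjusted p under 0.05, 11 were higher in Intestine, against 15.8% of all tested genes. The median was -3.87 with or without 8 members at their bound. Muc2, the gel-forming mucin of goblet cells, had 0 reads in Skin and measured 122 ± 19.6 (SD, n = 3) in Intestine, at least 136-fold higher (adjusted p = 0.0260 by limma). Its 3 Intestine libraries were close together. Lgals4, a lectin of enterocytes, Zg16, a secreted goblet cell lectin, and Clca1, a secreted goblet cell protease, also had 0 reads in Skin and did not pass (adjusted p = 0.0558 to 0.0563). Without Skin replicate 1, 2 or 3, 5, 2 and 1 of the 17 passed. The summed level over 24 genes was 1146, 615 and 82.3 in Skin and 941, 475 and 1013 in Intestine, and it overlapped, while 14 of the 24 had 0 reads in Skin and 0 in Intestine. Epcam, an adhesion molecule of many epithelia, was read in both, at 94.8, 242 and 0.0930 in Skin and 49.4, 6.76 and 34.9 in Intestine (0.29 ± 1.83, adjusted p = 0.944).

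The promoter of Muc2 is shown because its reads came from Intestine alone among these 6 libraries. These are the 250 bases before the RefSeq start on GRCm38.p6 at chr7:141690090-141690339 on the plus strand, 5′ to 3′, with TATAA in capitals.
Muc2: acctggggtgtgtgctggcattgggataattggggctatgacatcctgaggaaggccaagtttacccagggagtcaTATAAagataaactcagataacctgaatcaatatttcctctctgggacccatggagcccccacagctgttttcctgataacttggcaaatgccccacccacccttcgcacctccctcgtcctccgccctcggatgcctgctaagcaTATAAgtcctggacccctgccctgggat
The 2 matches start 174 and 28 bases before the gene's start. Searched on both strands, TATAA was found in 7 of 16 intestinal epithelium promoters with a RefSeq entry and in 22.8% of 32851 promoters of the same length. A match describes the letters only.

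**Figure D4:**
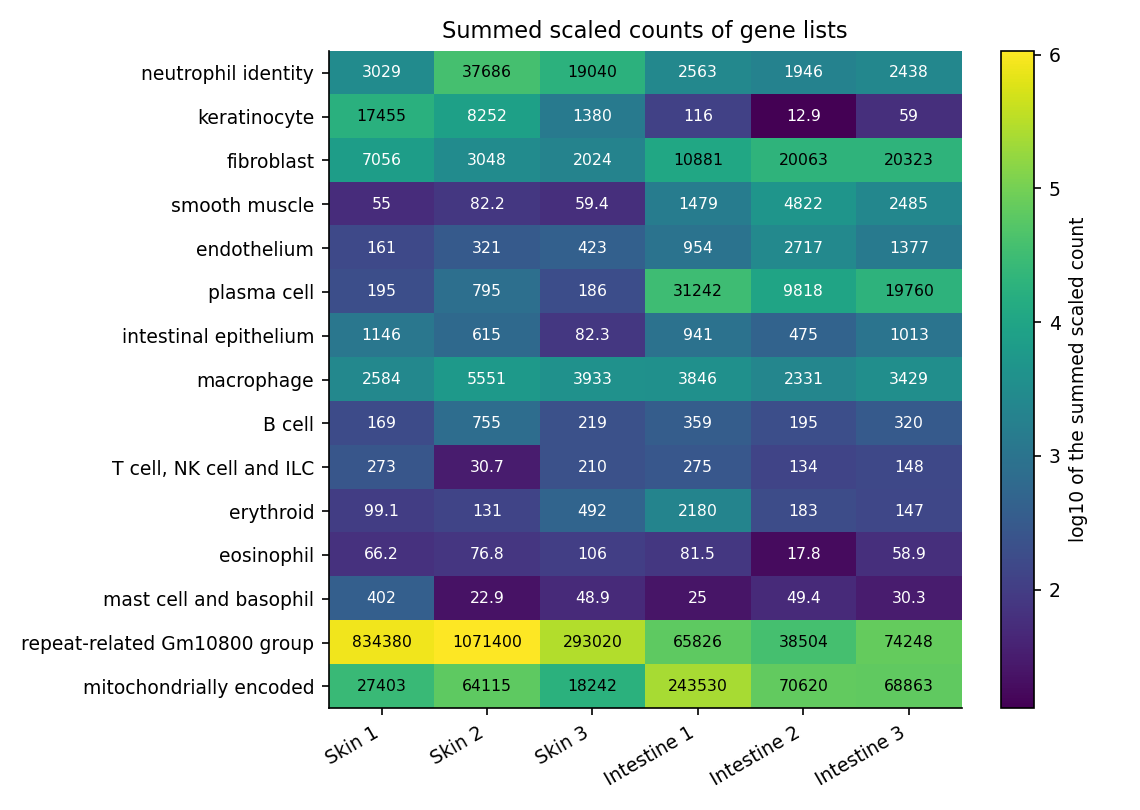
Summed scaled counts (colour, log10) of 15 gene lists (vertical axis) in the 3 Skin and 3 Intestine libraries (horizontal axis). The keratinocyte sum runs from 17455 down to 1380 in Skin and stays at or under 116 in Intestine, and the plasma cell sum runs from 9818.5 to 31242 in Intestine and stays at or under 795 in Skin.

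Adamdec1 had the smallest adjusted p of all 12585 genes. It encodes a secreted metalloprotease named decysin, known from gut macrophages and stroma, and it is in none of the marker lists. It had 0 reads in Skin and measured 820.3, 2038 and 2435 in Intestine, with a mean of 1764 ± 841 (SD, n = 3), at least 1974-fold higher in Intestine (adjusted p = 0.00233 by limma). Its means were 0.0755 to 5.76 in the other 4 tissues. The gene lies on chromosome 14 at 68563380 to 68582095, minus strand, and the call was lost under 4 of 17 alternatives.

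Hhip followed among the protein-coding genes outside the marker lists. It encodes a protein that binds and limits hedgehog ligands, and it measured 0.368, 0.216 and 0.279 in Skin and 146, 499.9 and 473 in Intestine (-7.99 ± 1.01, adjusted p = 0.0145 by limma). Skin values of Hhip correspond to at most a few reads. Ptch1, the hedgehog receptor, chosen here after its values were seen, measured 14.6, 0.216 and 2.14 in Skin and 182, 255 and 211 in Intestine (-5.78 ± 1.10, adjusted p = 0.0480). Nkx2-3, a homeobox factor of gut and spleen mesenchyme, Bmp5, a bone morphogenetic protein, and Fbn1, the microfibril protein fibrillin, likewise chosen after their values were seen, differed by -5.75, -4.91 and -3.36 and had adjusted p-values of 0.0464, 0.0491 and 0.0419.

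The remaining genes named by size were Col4a1, Cpq, Spon2, Col6a5, Casq2, Tmem119, C1qtnf3, Mmrn1, Glp2r and Apol7c. Col4a1, a collagen of basement membranes, measured 77.8, 395 and 66.4 in Intestine and 0.216 or less in Skin (-6.79 ± 1.16, adjusted p = 0.0376 by limma). Col6a5, a collagen VI chain, Cpq, a carboxypeptidase, Casq2, a calcium-binding protein of muscle, and Mmrn1, a large protein of endothelium and platelets, had 0 reads in Skin and were at least 120.3-fold, 132-fold, 118-fold and 101-fold higher in Intestine. Spon2, a secreted matrix protein, Tmem119, a membrane protein of microglia and bone-forming cells, C1qtnf3, a secreted adipokine, Glp2r, a gut hormone receptor, and Apol7c, an apolipoprotein, differed by -6.67, -6.37, -6.32, -6.28 and -6.12. By the means, all 28 passing genes without reads in Skin were at least 62.8-fold higher in Intestine.

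The marker genes of these other cells and the passing genes were read in the same libraries, and the part of such cells in the differences was not tested. Summed markers of several other cells overlapped between the tissues. Macrophage markers summed to 2584 to 5551 in Skin and 2331 to 3846 in Intestine, with 0 of 16 at 0 reads in either tissue. Of these 16, 0 passed by limma, against 0.238% of all tested genes higher in Skin and 0.524% higher in Intestine. At an unadjusted p under 0.05, 0 differed in either direction, against 5.3% and 15.8%. Eosinophil markers summed to 66.2 to 106 in Skin and 17.8 to 81.5 in Intestine, with 2 and 4 of 11 at 0 reads. Siglecf, an eosinophil receptor also seen on some tissue neutrophils, measured 0.0736, 1.08 and 63.2 in Skin and 16.4, 3.94 and 10.1 in Intestine, with overlap (adjusted p = 0.769).

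Interferon and antigen presentation genes did not pass in either direction. Of 22 tested genes of the interferon-gamma response 0 passed by limma. At an unadjusted p under 0.05, 2 were higher in Skin and 4 in Intestine, against 5.3% and 15.8% of all tested genes. These shares are the background for each list of this paragraph. The interferon-gamma median was -0.61, or -0.054 without Skin replicate 1, against -0.76 for all tested genes. Iigp1, a GTPase that attacks parasite vacuoles and has close relatives in its family, measured 0.221, 0.649 and 1.77 in Skin and 26.5, 73.7 and 42.0 in Intestine (-4.65 ± 1.11, adjusted p = 0.0597). Cd274, the inhibitory ligand PD-L1, ran the other way, at 204, 1806 and 262 in Skin and 70.7, 43.8 and 99.4 in Intestine (2.75 ± 0.87, adjusted p = 0.0994). Of 29 type I interferon genes 0 passed by limma, with 1 and 3 at an unadjusted p under 0.05 and a median of 1.20. That median was -0.085 without Skin replicate 2 and 2.52 without Skin replicate 1, where 6 members passed as higher in Skin, and the summed level was 444, 13485 and 4181 in Skin and 991, 1031 and 1247 in Intestine, so Skin replicate 1 lay below Intestine. Of 12 tested class II genes 0 passed by limma, with 0 and 1 at an unadjusted p under 0.05. Cd74, the class II invariant chain, measured 767, 3276 and 1088 in Skin and 1859, 1091 and 1278 in Intestine, with overlap (0.03 ± 0.56, adjusted p = 0.984), and its means in the other 4 tissues were 19.1 to 573.

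Cell cycle and respiratory genes did not pass either. Of 19 tested cell cycle genes 0 passed by limma. At an unadjusted p under 0.05, 0 were higher in Skin and 6 in Intestine, against 5.3% and 15.8% of all tested genes. The cell cycle median was -1.78. That of all tested genes was -0.76, and the same shares and median are the background for the respiratory lists. Mcm2, a subunit of the replicative helicase, had 0 reads in Skin and 9.52, 9.59 and 13.2 in Intestine (adjusted p = 0.0586). Of 32 nuclear genes of oxidative phosphorylation 0 passed by limma, with 0 and 11 at an unadjusted p under 0.05 and a median of -1.36. Cox5a, a subunit of cytochrome oxidase, had 0 reads in Skin and 10.3, 19.2 and 44.8 in Intestine (adjusted p = 0.0586). Of 13 mitochondrially encoded genes 0 passed by limma, with 0 and 6 at an unadjusted p under 0.05 and a median of -2.04, or -1.23 without Intestine replicate 1 and -1.35 without Skin replicate 3. The transcript mt-Co1, for a cytochrome oxidase subunit made in the mitochondrion, measured 6831, 17558 and 5386 in Skin and 99163, 27333 and 27224 in Intestine (-2.28 ± 0.56, adjusted p = 0.0612). Intestine replicate 1 was far above the other Intestine libraries.

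Set beside the other 4 tissues, the neutrophil identity sum was lowest in the Intestine libraries, and Skin replicate 1, at 3029, also lay below those tissues. Skin replicate 1 was the lowest library for NADPH oxidase and NET genes, at 458 against 624 to 1137 in Intestine. The same held for chemokine receptors, at 676 against 695 to 1036. The identity sum of every Intestine library, at most 2563, lay below that of every bone marrow, blood, spleen and lung library, whose lowest was 11381. The Intestine libraries held the highest plasma cell and smooth muscle sums of the series, at 9818.5 or more and 1479 or more, where the highest library outside Skin and Intestine held 1618 and 288. Il1b averaged 10203 ± 10319 in Skin (SD, n = 3) and 9965 in lung, and 667 ± 74.5 in Intestine, against 914 to 3193 in bone marrow, spleen and blood. Nfkbia and Cxcl2 averaged 967 and 1107 in Skin and 1261 and 729 in lung, against 149 and 54.1 in Intestine. On this scale all tested genes summed to 1096300 to 2435900 in Skin, against 757770 to 1043800 in lung, so Skin levels beside other tissues depend on the scaling. These placements rest on per-tissue levels and were not tested.

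**Figure D5:**
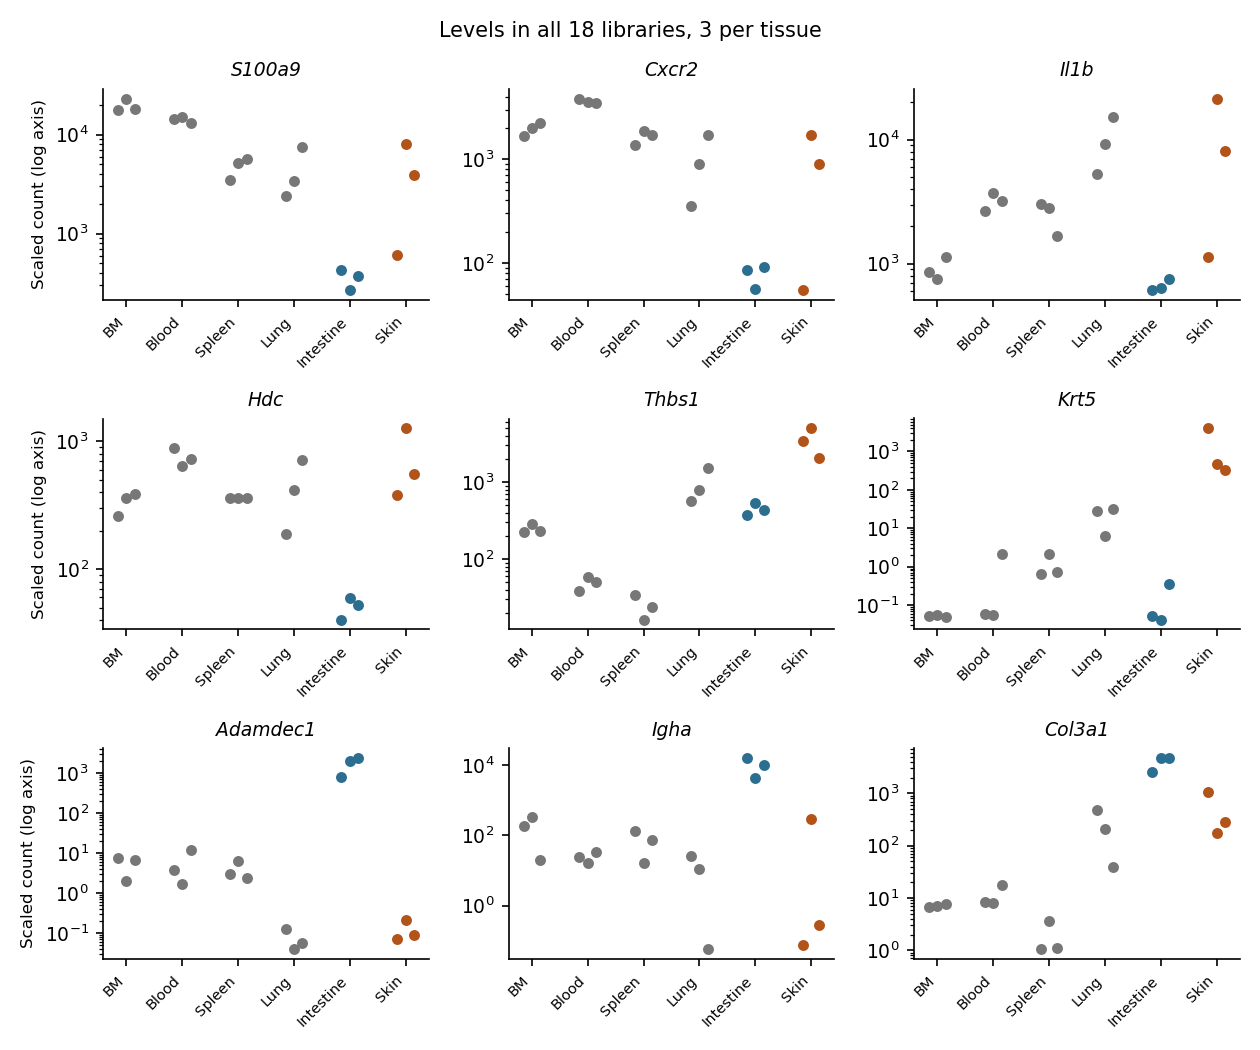
Scaled counts (y axis, log scale) of S100a9, Cxcr2, Il1b, Hdc, Thbs1, Krt5, Adamdec1, Igha and Col3a1 in the 18 libraries, grouped by tissue on the x axis, 1 point per library. Intestine lies lowest for S100a9 and Hdc and highest for Adamdec1 and Igha, and Skin lies highest for Krt5 and Thbs1.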

How the data were processed

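Bulk RNA-seq was measured in 18 libraries of sorted mouse neutrophils, and the 3 Skin and 3 Intestine libraries were fitted here. The deposited values are a signal, scaled counts per gene, made by the authors with CASAVA, RSEM 1.3.1 and limma on mm10, per the submitters' processing notes; the annotation version and any strand setting are not given in the sources used here. The values have the form (estimated count + 0.5) / (effective library size + 1), on a per-million scale, so a gene without reads keeps a small value. The design had assumed TPM. Of 32328 identifiers, 31899 were named with GENCODE vM21 and 429 were not.

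The 12585 genes that reached a value of 1 in 3 or more of the 6 libraries were tested on log2(value + 1) with limma 3.58.1 in R 4.3.3, with a trended prior and 4 residual degrees of freedom. A fold on this scale understates changes of low genes. Benjamini-Hochberg adjustment ran over all tested genes at 0.05. Steps were tested on simulated data. An exact permutation test of 3 against 3 cannot go below 0.1, so none was used for single genes. The members and the 29 state and 18 marker lists were chosen with earlier results of these data known. Named genes were the 12 protein-coding genes per direction with the largest difference, a mean of at least 20 and no overlap, outside the marker lists, up to 4 per described list by adjusted p, and a fixed set of neutrophil and control genes. The repeat-related genes among them are described as a group. A gene that the rule names is not reported here. A bound on a fold divides the mean of the tissue with reads by the mean level of 3 counts per library in the other tissue. It bounds the ratio of means, so a single library can lie below it. Promoters are RefSeq sequences on GRCm38.p6. Each result was recomputed under 17 alternatives.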

Additional observations from a re-analysis of the deposited data

How the results depend on the processing

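The counts of 30 genes higher in Skin and 66 in Intestine stayed within 1.5 times with a pseudocount of 0.5 and after rescaling without mitochondrial and repeat-related genes. They became 39 and 103 with a pseudocount of 5, 66 and 149 without a filter, 155 and 588 with a filter at 5, 371 and 437 after quantile normalization, 1 and 0 after centring, 352 and 797 with a weight per library, 838 and 2196 with all 18 libraries in one fit, and 20 and 321 with no trend in the prior. The weights ran from 0.173 for Skin replicate 2 to 6.27 for Intestine replicate 3. Leaving out 1 library gave 0 to 303 and 0 to 702 genes; the smallest adjusted p by limma without an Intestine library was 0.0650 to 0.135. The cause of these shifts was not tested. Fitted with the replicate block, 155 and 278 genes passed, but the numbers do not pair the libraries, since deviations of libraries with the same number correlated at -0.0595, -0.042 and 0.00898.

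Over all named genes and settings, 1755 log2 differences kept direction and side of the threshold, 294 lost a call, 310 gained one and 17 reversed. The reversed ones belong to 5 genes that did not pass. Camp was 0.19 with weights. Lyz2 was -0.0222 after quantile normalization. Cd74 was -0.60, -0.29 and -0.22 after quantile normalization, rescaling and weights, and -0.59 to 0.46 with 1 library left out. Epcam was -0.0312 and -2.09 after rescaling and weights, and -1.24 to 2.66 with 1 left out. Siglecf was 0.80, 0.29 and 0.54 after quantile normalization, centring and weights, and -2.72 to 0.23 with 1 left out. Depth limits what 0 reads can show, most in Skin replicate 2, where a gene without reads sits at 0.216.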
